A study of Bos taurus with 11 samples.

Results

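The miR-21 hairpin yields a pair of mature miRNAs, miR-21-5p from its 5′ side and miR-21-3p from its 3′ side. Both were found by their names, bta-miR-21-5p and bta-miR-21-3p, among the 796 rows of a table of small RNA sequencing counts, so that 2 of 796 rows are described here. The samples were biopsies of the mammary gland of lactating dairy cows, 5 of the Holstein breed and 6 of the Montbéliarde breed, with 1 library per cow. According to the methods, all cows were in mid-lactation and on the same diet, and the tissue was taken at the rear of the udder. No cow was treated or genetically modified, so breed was the one factor compared, and the question was whether either arm differs between the breeds.

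A miRNA gene is transcribed as a long RNA, trimmed to a hairpin and then cut to a short duplex of 2 strands. One strand, the guide, is loaded into an Argonaute protein and leads it to matching messenger RNAs, whose translation or stability falls. The other strand, the passenger, is mostly degraded. For miR-21 the 5p arm is the guide in most tissues studied. miR-21-5p is among the best known miRNAs of tumours, fibrosis and inflammation, its gene is activated by STAT3 and AP-1, and PDCD4 and RECK are well known targets of the guide arm. In the RefSeq annotation of the cow, MIR21 (gene 790982) lies on chromosome 19 and is listed between VMP1, which codes for a membrane protein of autophagy, and TUBD1, which codes for delta-tubulin.

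The 11 libraries held between 6087865 and 16808976 counted reads, and at least 10 reads were counted over all libraries for 550 of the 796 rows, both miR-21 arms among them. Between breeds, the totals of the Holstein libraries (7431936 to 16808976) overlapped those of the Montbéliarde libraries (6087865 to 11395785). Their means were 1.18e+07 and 8.92e+06 (exact permutation test, p = 0.121). The paper reported more adapter reads and too short reads for Montbéliarde, and a smaller part of the raw reads left after cleaning. This difference in the libraries cannot be told apart from breed. A pair of Montbéliarde libraries, CNLX15 and CNLX21, held the extreme ranks in lists of miRNAs that mark cell types. They had the lowest summed level of the epithelial miR-200 family. Their summed levels of the smooth muscle and fibroblast list and of the leukocyte list were the highest. They were not set clear of all other libraries, since CNLX13 came close to CNLX21 for leukocytes. The values of CNLX15 and CNLX21 are given beside each result that they touch. In such bulk tissue, fewer cells of a type and less RNA per cell cannot be told apart. The library tags run from CNLX1 to CNLX9 in Holstein and from CNLX13 to CNLX23 in Montbéliarde, so anything that follows the order of the tags cannot be told apart from breed.

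miR-21-5p was abundant and no difference between the breeds was detected in its mean, while the Montbéliarde cows lay on both sides of the Holstein cows. The normalized read counts of miR-21-5p in the Holstein libraries were 271284 in CNLX1, 225342 in CNLX3, 237252 in CNLX5, 236370 in CNLX7 and 226756 in CNLX9. The lowest, the median and the highest of the 6 Montbéliarde libraries were 168008 in CNLX19, 191275 and 383135 in CNLX21. Of the Montbéliarde libraries, 4 lay below every Holstein library, 2 lay above every Holstein library (CNLX21 and, with 310273, CNLX15) and 0 lay between. The groups therefore overlapped, although no Montbéliarde value fell within the Holstein range. The same numbers below, within and above were found with CPM, the reads per 1000000 counted reads after TMM scaling of the libraries, whereas by share of counted reads 3 Montbéliarde libraries lay below the Holstein range, 2 within it and 1 above it.

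The 5 Holstein libraries had a mean of 239401 ± 18627 (SD, n = 5) for miR-21-5p, and the 6 Montbéliarde libraries one of 238563 ± 87310 (SD, n = 6). In the edgeR quasi-likelihood fit over the 550 rows, the log2 fold change of Montbéliarde over Holstein was -0.01 (SE 0.217, 95% confidence interval -0.47 to 0.46), with an adjusted p of 0.997, and the sign of this small estimate turned when the libraries were scaled by the internal controls named below. As a ratio, the interval ran from 0.722 to 1.37, so breed differences within these bounds are not excluded by these 5 and 6 cows. In this comparison 0.364% of all rows tested passed the adjusted threshold, and 14.2% were at 0.05 or under before adjustment. miR-21-5p was in neither group, and 537 of the 550 rows had a smaller p. Its fold change was also small among the rows, since the absolute log2 fold change was smaller in 1.45% of them, with a median of 0.33 over all 550. The normalized counts of 11 of the 550 rows did not overlap between the breeds, neither arm of miR-21 among them.

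The spread of miR-21-5p was wider in Montbéliarde, which is given as a description, since the difference in spread was not tested. The coefficient of variation of the normalized counts was 7.78% in Holstein and 36.6% in Montbéliarde. On the log2 CPM scale the SD was 0.13 in Holstein and 0.49 in Montbéliarde, against medians over the tested rows of 0.27 and 0.41. Pooled within breeds, the SD of 0.38 was above that of 53.8% of the rows, so the overall spread of miR-21-5p was near the middle. Among the 115 rows with a mean of at least 100 CPM, it was above that of 60%. The median SD of those rows was 0.20 in Holstein and 0.40 in Montbéliarde. Counting error was far below this spread, because the lowest count of miR-21-5p, 112449 reads, has a counting coefficient of variation of 0.298%.

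**Figure D1:**
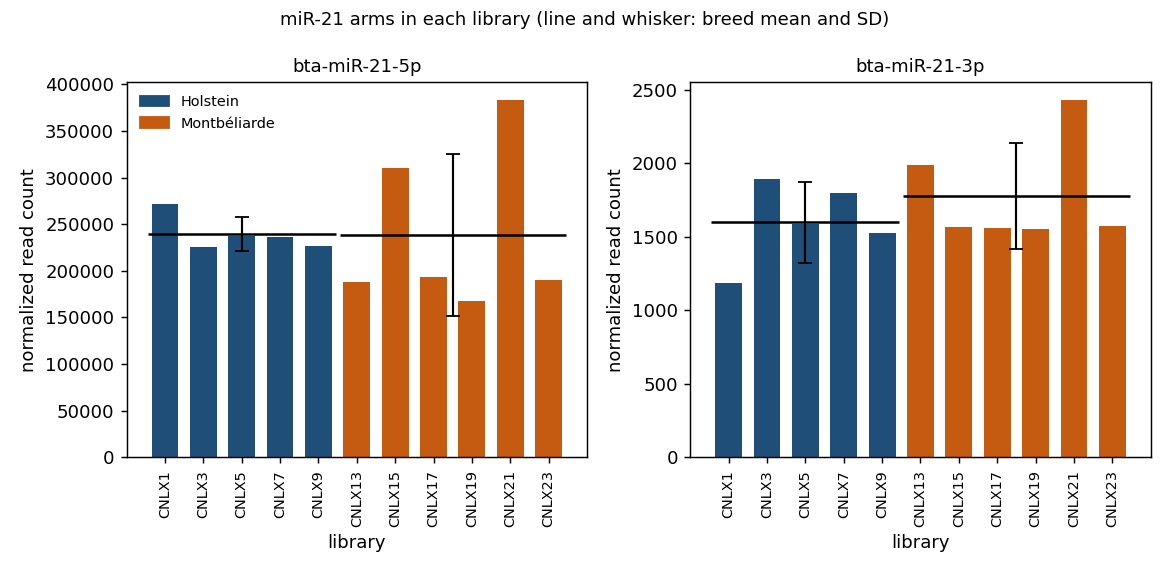
Normalized read count of miR-21-5p (left) and miR-21-3p (right) in each of the 11 libraries, with bars coloured by breed and a line and whisker for the mean and SD of each breed. Of the 6 Montbéliarde bars of miR-21-5p, 4 lie below and 2 above all Holstein bars, and CNLX21 has the highest bar in both panels.

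miR-21-3p, the passenger arm, was scarce, and no breed difference was detected for it either. In the Holstein libraries its normalized read counts were 1182 in CNLX1, 1893 in CNLX3, 1587 in CNLX5, 1795 in CNLX7 and 1527 in CNLX9. The lowest, the median and the highest of the Montbéliarde libraries were 1554 in CNLX19, 1565 and 2427 in CNLX21. In Montbéliarde, 4 libraries lay close together between 1554 and 1569, CNLX13 reached 1983, and CNLX21 again was the highest of all 11. CNLX15, the second highest library for miR-21-5p, was among the 4 that lay close together and held rank 9 of 11 in CPM of miR-21-3p.

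For miR-21-3p the mean of the Holstein libraries was 1597 ± 276 (SD, n = 5) and that of the Montbéliarde libraries was 1775 ± 361 (SD, n = 6). The log2 fold change in the edgeR fit was 0.15 (SE 0.189, 95% confidence interval -0.25 to 0.56), with an adjusted p of 0.768. That is a ratio of 1.11 with an interval from 0.841 to 1.47, and 305 of the 550 rows had a smaller p. The within-breed SD of miR-21-3p on the log2 CPM scale was 0.27 in Holstein and 0.31 in Montbéliarde. The lowest count, 1037 reads in CNLX17, has a counting coefficient of variation of 3.11%, against 17.3% and 20.4% for the normalized counts in Holstein and Montbéliarde.

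Each read of a small RNA library stands for a whole mature miRNA, so levels of different miRNAs can be set side by side as shares of the counted reads, with the limit that adapters do not join to all sequences equally well. miR-21-5p made up 2.46% ± 0.305 (SD, n = 5) of the reads for Holstein cows and 2.42% ± 0.842 (SD, n = 6) for Montbéliarde cows, with a p of 0.918 in the two-sided exact permutation test. The share ran from 1.77% in CNLX17 to 3.98% in CNLX21, where the Wilson 95% interval was 3.97% to 3.99%. By rank within a library, miR-21-5p was 10th to 12th in the Holstein libraries and 7th to 13th in the Montbéliarde libraries, with the 7th place in both CNLX15 and CNLX21. By mean share it was 11th of all rows.

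Its neighbours in that order did not stand clear of it. miR-141, an epithelial miRNA of the miR-200 family, was 10th with a mean share of 2.50% ± 0.969 (SD, n = 11) and was above miR-21-5p in 8 of the 11 libraries. let-7a-5p, a member of the let-7 family of differentiation-linked miRNAs, was 12th with 2.19% ± 0.465 (SD, n = 11) and was above it in 4 libraries. The differences of these means from the 2.44% ± 0.626 (SD, n = 11) of miR-21-5p were smaller than the spread between the cows.

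miR-21-3p made up 0.0163% ± 0.00286 (SD, n = 5) of the reads for Holstein cows and 0.0182% ± 0.00419 (SD, n = 6) for Montbéliarde cows, with a p of 0.442 in the two-sided exact permutation test. It held the 99th place by mean share and ranks from 87 in CNLX21 to 111 in CNLX1. miR-374c, just above it, had the larger share in 7 libraries, and miR-2285t, just below it, in 6 libraries, so the order of these 3 rows was within the spread between the cows.

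The ratio of the arms needs no scaling between libraries, because both counts come from the same library. There were 230 reads of miR-21-5p per read of miR-21-3p in CNLX1, 119 in CNLX3, 150 in CNLX5, 132 in CNLX7 and 148 in CNLX9. In Montbéliarde the lowest, the median and the highest ratio were 94.5 in CNLX13, 122 and 199 in CNLX15. The guide arm thus exceeded the passenger arm by at least 94.5 to 1 in all 11 libraries. The ratios of the breeds overlapped, and the highest ratio of each breed, in CNLX1 and in CNLX15, exceeded all the others.

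On the log2 scale the arm ratio averaged 7.24 ± 0.36 (SD, n = 5) for Holstein cows and 7.02 ± 0.39 (SD, n = 6) for Montbéliarde cows. The difference of -0.22 was smaller than the SD within either breed and did not pass the exact permutation test (two-sided p = 0.351). Without CNLX1 alone, the difference was -0.07. Expressed as a percentage, the passenger arm made up 0.434% of all miR-21 reads in CNLX1 (Wilson 95% interval 0.411% to 0.457%) and 1.05% in CNLX13 (0.990% to 1.11%). These intervals, which cover counting error only, lay far apart, so libraries differed in the arm ratio by more than counting error.

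**Figure D2:**
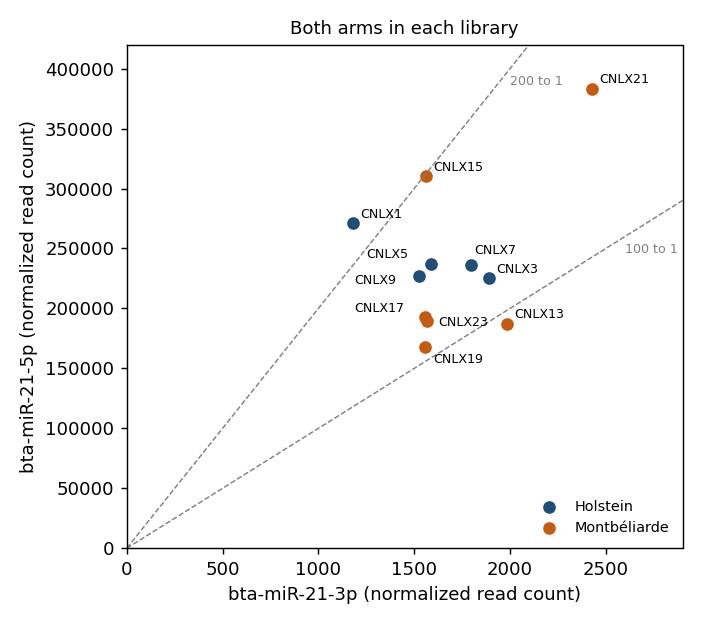
Normalized read count of miR-21-5p (vertical axis) against that of miR-21-3p (horizontal axis) in each library, with dashed lines where the guide arm is 100 and 200 times the passenger arm. 9 libraries lie between the lines, CNLX15 among them just below the upper line, while CNLX1 lies above the upper line and CNLX13 under the lower line.

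Among the 23 miRNAs with enough reads of both arms, miR-21 was one of the most one-sided. The table listed both arms of 63 miRNAs, of which 23 had a mean of at least 10 reads in each arm and no library at 0. The 5p arm was the higher one in 13 of these and the 3p arm in 10. miR-21 had the 2nd highest mean log2 ratio of 5p over 3p, 7.12, which is 139 to 1, after let-7a with 9.81 and just before miR-99a with 6.92. At the other end, miR-22 had a mean log2 ratio of -9.72, which is 842 reads of its 3p arm per read of the 5p arm. The arms of 3 pairs lay further apart than those of miR-21 in either direction, and the median absolute log2 ratio of the 23 pairs was 2.0. The limit on reads leaves out pairs whose lesser arm is scarce, however one-sided they are. A large ratio can therefore enter only for an abundant miRNA. Rows listed without an arm name, such as miR-143, could not enter either, so the order holds among the 23 pairs only.

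Among the 23 pairs, 12 had a smaller absolute breed difference of the log2 ratio than miR-21. With p-values of the exact permutation test adjusted over the pairs, miR-21 had an adjusted p of 0.576, and 13 pairs had a smaller p. No pair passed the adjusted threshold, that is 0% of the pairs, and 2 pairs or 8.70% were at 0.05 or under before adjustment. The within-breed SD of the log2 ratio of miR-21 was 0.38, against a median of 0.41 over the pairs, and 6 pairs had a smaller SD.

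**Figure D3:**
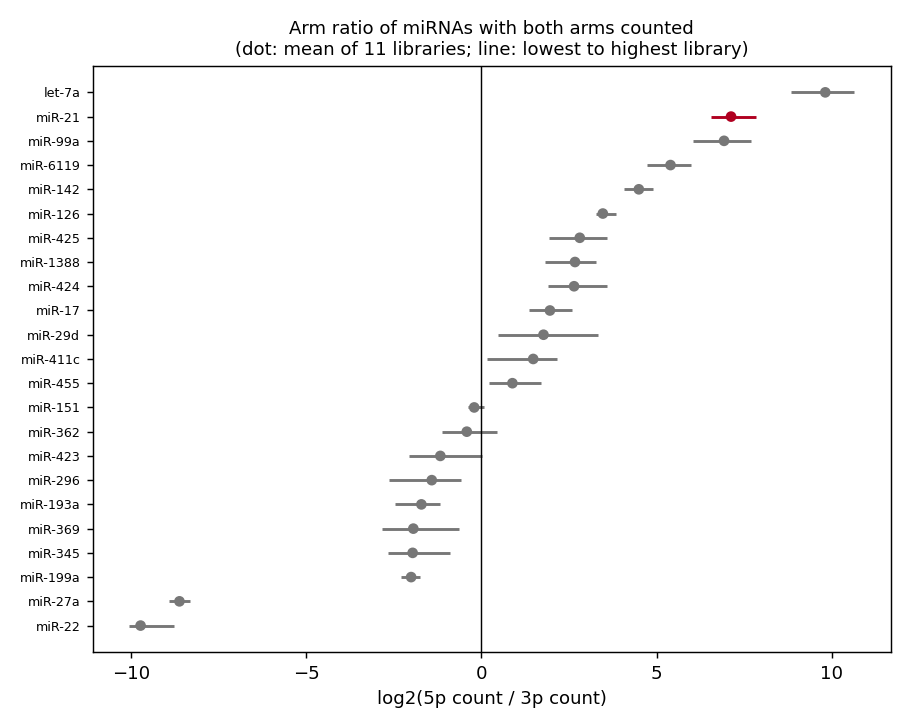
Log2 ratio of the 5p count to the 3p count for the 23 miRNAs with both arms counted, ordered by the mean over 11 libraries (dot), with a line from the lowest to the highest library. miR-21 (red) is 2nd from the top with a mean of 7.12 and a range from 6.56 to 7.84, between let-7a and miR-99a.

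No relation between the levels of the arms passed the threshold. Across the 11 libraries, Pearson's r of the log2 CPM of both arms was 0.352 (permutation p = 0.282, adjusted 0.517 over 11 relations) and Spearman's rho was 0.027 (permutation p = 0.946, adjusted 0.946). Without the 2 libraries farthest from the median of miR-21-3p, CNLX1 and CNLX21, r was -0.082. Within the 6 Montbéliarde libraries r was 0.622 (exact permutation p = 0.15), and in Holstein 5 libraries are too few for a correlation. CNLX1 and CNLX21 pulled in opposite directions: in CNLX1 the lowest passenger arm stood beside a high guide arm, and in CNLX21 both arms were at their highest.

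The miRNAs whose levels followed miR-21-5p most closely were let-7i, miR-142-3p and miR-361, out of 212 rows with a mean of at least 10 CPM. Pearson's r on log2(CPM + 1) over the 11 libraries was 0.874 for let-7i, 0.823 for miR-142-3p and 0.787 for miR-361, against a median of 0.172 over the rows. These values were chosen for their size and are given without a test, and all rows share the libraries and their scaling. let-7i had 4849 CPM in CNLX21 and 4494 in CNLX15, its highest values, and 2673 in CNLX13, its lowest. miR-142-3p, which is made in blood cells of all lineages, also had its highest levels in CNLX21 (159 CPM) and CNLX15 (136 CPM). Without CNLX15 and CNLX21, r was 0.764 for let-7i, 0.528 for miR-142-3p and 0.727 for miR-361. The miR-21-3p arm came behind 78 rows in likeness to miR-21-5p.

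For miR-21-3p the closest rows were miR-6524 (r = 0.654), miR-93 (r = 0.635), a member of the proliferation-linked miR-106b cluster, and miR-2284z (r = 0.628), against a median of 0.079. Each value was lower without the libraries farthest from the median of miR-21-3p. Without CNLX1 and CNLX21, r was 0.179 for miR-6524, -0.131 for miR-93 and 0.257 for miR-2284z. miR-6524 had 197 CPM in CNLX21, and between 63.6 and 106 CPM in the other 10 libraries.

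The biopsies hold several cell types, and lists of miRNAs that mark them were summed in each library to stand beside the miR-21 arms. All 5 miRNAs of the mammary epithelium list (miR-200a, miR-200b, miR-200c, miR-141 and miR-429, which keep epithelial cells from a mesenchymal state) had lower estimates in Montbéliarde, with a median log2 fold change of -0.33, except that miR-200a turned to 0.05 when scaled by the internal controls. Their sum ran from 36010 to 44636 CPM in Holstein and from 15693 to 45919 CPM in Montbéliarde (exact permutation test, p = 0.0260, adjusted 0.0779 over 6 lists). In the smooth muscle and fibroblast list (miR-143, miR-145, miR-199a-5p, miR-199a-3p and miR-214), 4 of 5 had higher estimates in Montbéliarde and the median was 0.58. The estimate of miR-145 went the other way, with a log2 fold change of -0.27, against 0.58 for miR-143. Its sum, nearly all of it miR-143, ran from 153729 to 226266 CPM in Holstein and from 195519 to 378060 CPM in Montbéliarde (exact permutation test, p = 0.00866, adjusted 0.0519). The median log2 fold change of all 550 rows was 0.03.

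In both of these lists 2 of the 5 miRNAs fell to 0.05 or under in edgeR before adjustment (miR-200c and miR-141, and miR-143 and miR-199a-3p). Over all 550 rows 14.2% did, and the lists are too short for a close comparison with this share. No miRNA of these or of the other cell type lists passed the adjusted threshold in edgeR, DESeq2 (which called 4.86% of all rows) or limma-voom (0.364%), and among the leukocyte, endothelium and erythroid miRNAs 0 were at 0.05 or under before adjustment in edgeR. The summed levels of those 3 lists overlapped between the breeds: 1827 to 2905 CPM in Holstein and 1748 to 3854 CPM in Montbéliarde for leukocytes (miR-142-5p, miR-142-3p, miR-150, miR-155 and miR-223), 25476 to 34172 CPM and 24320 to 30312 CPM for endothelium (miR-126-5p and miR-126-3p), and 2544 to 4094 CPM and 2525 to 5469 CPM for erythroid cells (miR-451, miR-144 and miR-486). The exact permutation p for these sums was 0.524, 0.541 and 0.602, and 0.602 for each after adjustment. No miRNA of any list was at 0 in all libraries, and the defining epithelial miRNAs of the labelled tissue were counted in every library, miR-429, the scarcest, at 184 CPM or more.

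Across all 11 libraries, the relations of miR-21-5p with the leukocyte and erythroid lists had the lowest p-values, and neither passed after adjustment. With the leukocyte list, Pearson's r was 0.659 (permutation p = 0.0236, adjusted 0.145) and rho was 0.636 (permutation p = 0.0392, adjusted 0.243). Most of the leukocyte sum was miR-142-5p, with a Holstein mean of 2037 CPM, against 97.0 for miR-155 and less for the others. Without CNLX15 and CNLX21, r fell to 0.290. Without single libraries it ran from 0.554, without CNLX21, to 0.845, without CNLX13, with adjusted permutation p of 0.541 and 0.0170. Scaled by the internal controls, r was 0.443 (adjusted permutation p = 0.590) and rho was 0.209 (permutation p = 0.537). By percent of reads r was 0.572, and with breed means subtracted it was 0.704 (adjusted permutation p of 0.329 and 0.114). CNLX13 had the third highest leukocyte sum and one of the lower levels of miR-21-5p. Within Montbéliarde r was 0.741 (exact permutation p = 0.0694).

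With the erythroid list, r was -0.655 (permutation p = 0.0264, adjusted 0.145) and rho was -0.627 (permutation p = 0.0442, adjusted 0.243), so miR-21-5p was lower where this sum was higher. Most of the sum was miR-486, with a Holstein mean of 3047 CPM, against 200 for miR-451 and 8.11 for miR-144. Without CNLX13 and CNLX17, r was -0.527. Without single libraries, r ran from -0.800, without CNLX19, to -0.602, without CNLX21, with adjusted permutation p of 0.0478 and 0.541. Scaled by the internal controls it was -0.439 (adjusted permutation p = 0.590). By percent of reads r was -0.711, and with breed means subtracted it was -0.649 (adjusted permutation p of 0.130 for each). Within Montbéliarde r was -0.708 (exact permutation p = 0.128). Taken singly over the 11 libraries, on log2(CPM + 1) and without a test, r was -0.629 for miR-486 and -0.485 for miR-451. The part of blood or of leukocytes in the level of miR-21-5p was not tested.

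With the lists of the tissue itself, the relation of miR-21-5p turned with 2 libraries. With mammary epithelium r was -0.399 (permutation p = 0.224, adjusted 0.496) and rho was -0.173 (permutation p = 0.615). With the mean of each breed subtracted, r was -0.659 (permutation p = 0.0353, adjusted 0.130), and rho was -0.536 (permutation p = 0.0943). Without CNLX15 and CNLX21, r was 0.656. Most of the epithelial sum was miR-141, with a Holstein mean of 31826 CPM, against 5370 for miR-200c and less for the others. Taken singly over the 11 libraries, on log2(CPM + 1), miR-141 had the weakest relation with miR-21-5p, with an r of -0.322. It was -0.492 for miR-200c, -0.524 for miR-429, -0.665 for miR-200b and -0.757 for miR-200a. These single values were not tested. With smooth muscle and fibroblasts r was 0.302 (permutation p = 0.368, adjusted 0.579) and rho was -0.073 (permutation p = 0.840). With breed means subtracted, r was 0.548 (permutation p = 0.0829, adjusted 0.228) and rho was 0.409 (permutation p = 0.216). Without CNLX15 and CNLX21, r was -0.835. Taken singly over the 11 libraries, on log2(CPM + 1) and without a test, r was 0.300 for miR-143. It was 0.4465 for miR-199a-3p, 0.548 for miR-199a-5p, 0.550 for miR-145 and 0.614 for miR-214. By CPM, CNLX15 and CNLX21 had high miR-21-5p, a low epithelial sum and a high smooth muscle and fibroblast sum. In the other 9, miR-21-5p was higher where the epithelial sum was higher and the smooth muscle and fibroblast sum lower. Among these 9 the 5 Holstein libraries had more miR-21-5p than the 4 Montbéliarde libraries. The relation with endothelium was close to 0 (r = 0.035, permutation p = 0.915, rho = -0.027, permutation p = 0.946).

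**Figure D4:**
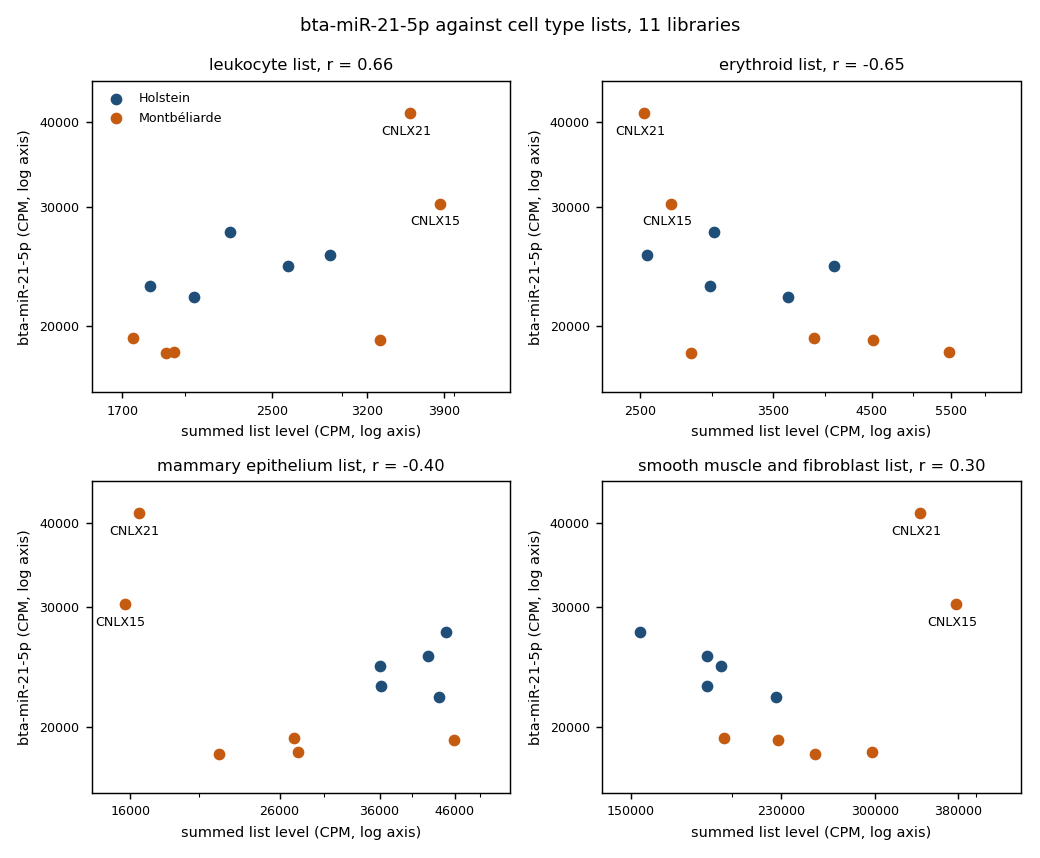
Level of miR-21-5p (CPM, log axis) against the summed level of 4 cell type lists (CPM, log axis) in the 11 libraries, coloured by breed, with r of the log2 values above each panel. CNLX15 and CNLX21 have the highest miR-21-5p by CPM. They sit at the high end of the leukocyte and the smooth muscle and fibroblast panels and at the low end of the epithelium panel.

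miR-21-3p followed none of the lists past the threshold. Its r was 0.489 with leukocytes (permutation p = 0.128, adjusted 0.468), 0.401 with smooth muscle and fibroblasts (permutation p = 0.225, adjusted 0.496), -0.226 with epithelium (permutation p = 0.510, adjusted 0.644), -0.215 with erythroid cells (permutation p = 0.527, adjusted 0.644) and 0.081 with endothelium (permutation p = 0.815, adjusted 0.897). The values of rho lay between -0.291 and 0.355, with adjusted permutation p of 0.884 or more. Over both arms, 0 of the 10 relations with lists passed after adjustment. Before adjustment, the Pearson permutation p of 2 of the 10 was at or under 0.05, those of miR-21-5p with leukocytes and with erythroid cells.

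miR-21 is one of the miRNAs that inflammatory signalling induces, and of 9 others of this kind 8 were counted (miR-9-5p was not found under that name). 6 of the 8 had higher estimates in Montbéliarde and 2 higher in Holstein, with a median log2 fold change of 0.47. None of the 8 passed in edgeR, where 2 were at 0.05 or under before adjustment (14.2% of all rows were), or in limma-voom. DESeq2 gave an adjusted p for 7 of the 8 and called 1 of them, miR-146b, while it called 21 of 432 rows in all. The paper, which used DESeq2, also listed miR-146b as differentially expressed and reported the same pattern for it by RT-qPCR. miR-146b, which dampens NF-κB signalling, had a log2 fold change of 1.58 (SE 0.525) and an edgeR adjusted p of 0.209. miR-221, which targets a brake on the cell cycle, had one of 0.63 (SE 0.263) with an edgeR adjusted p of 0.309. The estimates of both arms of miR-21 were smaller than the median of this list.

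By CPM, the inflammation list and miR-21-5p were highest in the same libraries. The sums of the list were 5923 CPM in CNLX15 and 3632 CPM in CNLX21, against 1345 to 2559 CPM in the other 9. By share of counted reads, however, miR-21-5p was lower in CNLX15 (2.72%) than in CNLX1 (2.86%). miR-146a, miR-146b, miR-155, miR-132, miR-221 and miR-222 were each highest in CNLX15 and second highest in CNLX21. For miR-21-5p the order was the other way, with 41287 CPM in CNLX21, 30335 CPM in CNLX15 and a median of 22972 CPM over all libraries. miR-146b showed this with 3857 CPM in CNLX15, 1873 CPM in CNLX21 and a median of 608 CPM. miR-212 and miR-181b did not share the pattern, since CNLX15 was 6th of 11 for miR-212 and 10th for miR-181b. The likeness between miR-21-5p and these miRNAs in CNLX15 and CNLX21 is a description of 2 cows, and the part of the cell type sums, which were extreme in the same libraries, was not tested.

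**Figure D5:**
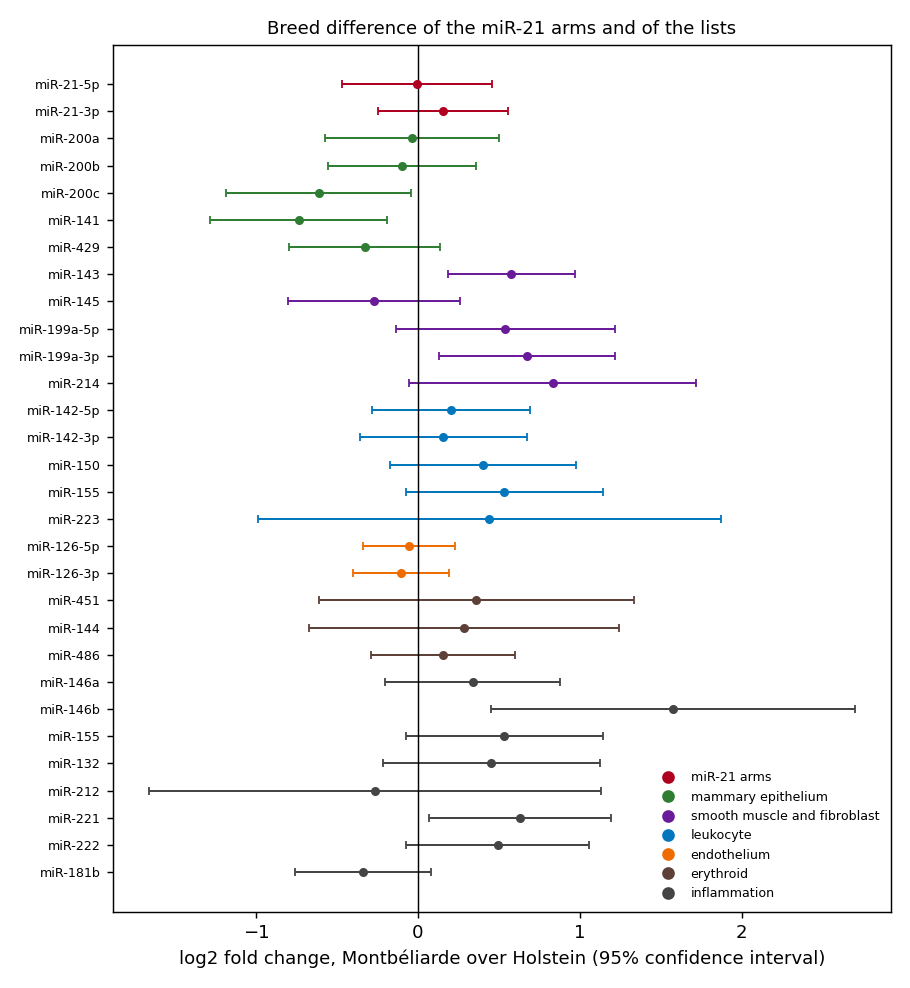
Log2 fold change of Montbéliarde over Holstein with 95% confidence interval from the edgeR fit, for both miR-21 arms (red, at the top) and the members of the cell type and inflammation lists. The interval of miR-21-5p is centred on -0.01 and that of miR-21-3p on 0.15, and both span 0, while miR-146b has the highest estimate at 1.58.

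As a check of the scaling, the internal controls of the RT-qPCR of the study had log2 fold changes of 0.14 for miR-26a, 0.30 for miR-92a and -0.40 for miR-191, with edgeR adjusted p of 0.819, 0.348 and 0.348. When the libraries were scaled by these 3 controls instead, the log2 fold change of miR-21-5p was 3.24e-05.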

How the data were processed

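Small RNA libraries of 11 mammary biopsies were compared by breed as given in the sample records, with replicates numbered in record order. Per the methods, the authors trimmed and size-selected reads, quantified them with ncPRO-seq, identified miRNAs with miRDeep2 on an earlier assembly and deposited raw read counts per mature miRNA. They also deposited a signal, the normalized read counts, obtained by dividing each library by its DESeq2 size factor (recomputed to within a relative 2.75e-06). How reads matching several miRNAs were counted is not given in the sources used here, and neither arm was proportional to another row. The columns of the authors' breed comparison (fold changes, p-values) were not used.

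Rows with at least 10 summed counts were tested with edgeR 4.0.16 in R 4.3.3 (TMM, robust quasi-likelihood, Benjamini-Hochberg, threshold 0.05). DESeq2 1.42.0 and limma 3.58.1 (voom) were alternatives. All were tested on simulated counts. Single values were compared with exact permutation tests (smallest p 0.00433), correlations with 100000 resamples. Wilson intervals cover counting error.

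Members, lists and tests were chosen with earlier results of these data known. Named by rule were both arms, their neighbours in abundance, the 3 most alike rows, pairs beside miR-21 and at the ends, RT-qPCR controls and list members. Rows sharing a seed with miR-21 were not analysed here. RefSeq names came from a later assembly, so no coordinates are given. P-values set a difference between the breeds, or a relation, against the spread between these cows.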

Additional observations from a re-analysis of the deposited data

Results flagged for a closer look

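Of the 10 sets of values checked (5 measures of the miR-21 arms in each breed), 2 had a library whose gap to its nearest neighbour, as a fraction of the range of its breed, exceeded Dixon's 95% critical value, where chance gives about 1 in 20. Both were CNLX1 of Holstein. Its normalized count of miR-21-5p, 271284, was the highest of the 5 Holstein libraries, with a gap of 0.741 of the range against a critical value of 0.710. Its 230 reads of miR-21-5p per read of miR-21-3p were also the highest, with a gap of 0.724. The measures are not independent, because the guide arm enters both. CNLX1 also had the lowest normalized count of miR-21-3p of all libraries, 1182, and the lowest smooth muscle and fibroblast sum, 153729 CPM. CNLX15 and CNLX21, which held extreme ranks in cell type lists, did not exceed the critical value in any measure of the arms. The rule can hardly flag them, because 2 high libraries of 1 breed each shorten the gap of the other. For the normalized count of miR-21-5p, CNLX21 (383135) was set against CNLX15 (310273), with a gap of 0.339 against a critical value of 0.625.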

How the results depend on the processing

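Over 19 results, 278 values were recomputed under other settings, of which 232 kept their direction and side of the threshold (or, for counts, stayed within 1.5 times). The breed difference of miR-21-5p was so close to 0 that its sign changed, to 3.24e-05 with the internal controls, 0.0439 with a mean of at least 100 counts and 0.146 with the log2 library total as covariate, and it ran from -0.174 to 0.123 when single libraries were left out, lowest without CNLX21. Its adjusted p was 0.703 or more throughout. The difference in its share was 0.38 percentage points when miR-143 was taken out of the totals and ran from -0.354 to 0.0888 without single libraries, none past the threshold. The difference of miR-21-3p stayed positive under all 19 alternatives (0.0782 to 0.283 without single libraries, adjusted p 0.485 to 0.930). That of the arm ratio stayed negative under all 13, from -0.345 to -0.0727 without single libraries. No arm pair was called under any of 14 alternatives.

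The number of rows past the threshold, 2 in edgeR, was 21 with DESeq2, 0 with DESeq2 size factors in edgeR, 1 with library totals, 0 with the internal controls, and 0 to 6 without single libraries (6 without CNLX23, 5 without CNLX17, 4 without CNLX13, 1 without CNLX9 and 0 without any other). Why DESeq2 called more was not tested. The relation between the arms ran from -0.34, without CNLX21, to 0.583, and the number of list relations past the threshold from 0 to 1 (1 without CNLX13 and 1 without CNLX19). For miR-21-5p, the relation with endothelium was -0.0666 by percent of reads and -0.108 to 0.185 without single libraries, and that with smooth muscle and fibroblasts -0.0575 to 0.464. For miR-21-3p, scaled by the internal controls, r was 0.0955 with epithelium and 0.205 with erythroid cells, and without single libraries it ran from -0.398 to 0.223 and from -0.368 to 0.0748. No paired analysis was possible because replicates are numbered in record order only and no label pairs the cows. Counting error of the lowest count was 0.298% for miR-21-5p and 3.11% for miR-21-3p.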
